A study of Homo sapiens with 6 samples.

Results

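The genes described here encode the proteasome: the subunits of its 20S core and 19S regulatory particle, the inducible immunoproteasome subunits, the activators and an inhibitor that bind the core, and the chaperones that assemble it. They were taken as the array rows whose only annotated gene symbol is one of 48 listed members, with the row of the highest mean over the 6 arrays for each gene. Of the 48 members 45 were measured, out of 18417 genes with such rows, and PSMC5, PSMD7 and PSMD13 were not analysed here. Expression was measured once in each of 6 groups of cultured cells, on 1 Affymetrix array per group. HCT116 cells derive from a human colorectal carcinoma, and HCT116-p53KO cells are the derivative labelled as lacking p53. Both were transfected transiently with control siRNA or with siRNA against NRF3, and RNA was taken after 48 h. H1299 cells, from a human non-small cell lung cancer, received a plasmid for GFP or for NRF3 and were selected with G-418 into stable lines. The sources used here do not give the siRNA sequences, the plasmids' promoter or whether a stable line was 1 clone.

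The proteasome degrades proteins that carry ubiquitin chains. Its 20S core is a barrel of stacked rings, in which the outer alpha rings gate the entrance and the inner beta rings hold the proteolytic sites, and the 19S particle binds ubiquitin, removes it and threads the unfolded protein into the core. NRF3, encoded by NFE2L3, is a CNC-family transcription factor. Its relative NRF1, encoded by NFE2L1, is best known for raising proteasome gene transcription when proteasome activity is low. CNC factors bind DNA with small MAF proteins at antioxidant response elements (ARE), and published work on colon cancer cells has tied NRF3 to the core assembly factor POMP, so the direction of proteasome genes is a question these arrays can address.

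Levels below are log2 intensities after RMA, and a difference is 1 array's log2 level minus another's, so a difference of 1 is 2-fold. A gene entered a comparison where it reached 6, low on this scale, on at least 1 of its 2 arrays. Since each group has 1 array, a difference within a line has no replicate check, and that number limits the precision throughout. Counts past a size threshold, a ratio of 5 to 4 or 0.32 on the log2 scale, describe these arrays only. In a lysate of many cells, fewer cells that express a gene and less RNA per cell cannot be told apart.

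The labels were checked first. NFE2L3 was at 8.97 on the control and 6.62 on the knockdown array of HCT116, at 8.71 and 7.15 in HCT116-p53KO, and at 8.18 with GFP and 10.20 with NRF3 in H1299, so it moved as each label requires. Of 13 p53 target genes 12 were lower on the HCT116-p53KO control array than on the HCT116 control array, with a median of -0.61. The epithelial gene EPCAM lay between 10.91 and 11.42 on the HCT116-family arrays and was at 3.98 and 3.74 in H1299, where the mesenchymal gene VIM was at 12.45 and 12.08. Of 5 mesenchymal genes, however, 4 were at 6 or more on every HCT116-family array and 4 on both H1299 arrays. The gene under 6 was CDH2 in the first set and SPARC in the second. Of 10 epithelial and colon genes 7 were at 6 or more on every HCT116-family array, the intestinal factor CDX2 between 8.39 and 8.69, and 3 (VIL1, CDH17 and KRT20) were under 6 on all. In H1299 4 of the 10 were at 6 or more on both arrays, with CDX2 at 6.73 and 6.62 among them. Of 8 lung epithelial genes 6 were under 6 on both H1299 arrays, NKX2-1 among them, and SFTPD and FOXA2 reached 6.15 on 1 array each. On every HCT116-family array 5 of these 8 were at 6 or more, so the lung list did not mark H1299. Of 5 measured leukocyte and blood genes CD14 and HBB passed 6 in the HCT116 family, reaching 6.51 and 6.08, 0 did in H1299, and PTPRC reached at most 3.80. The distributions of the HCT116-family and H1299 arrays differed on average by 0.779 to 0.805, so levels were not compared between these sets.

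Because CNC factors act through AREs, the bases upstream of the members' RefSeq starts were searched for the ARE core, TGACNNNGC, on both strands. Windows of 250 bases upstream were present for 42 of the 48 members. The core was found for 14 of the 42 (33.3%), against 15.1% of 14239 genes on the array that had a window. A stricter form, which overlaps this one and ends in a further A, was found for 8 of the 42, against 3.41%. The CCAAT box was found for 19 (45.2%), against 40.4%. Counted over windows, since some genes have several, the core stood in 15 of 52 member windows and 10.9% of all 35116, and a match describes letters only. The stretches below are from RefSeq, build GRCh38.p14, 5′ to 3′ on the gene's strand. They were picked among the members named below, mostly from those with an ARE core. Capitals mark the ARE core or its reverse complement. In PSMC3 they mark the CCAAT box, and POMP and PSMC3 had no ARE core in their window. PSMC6, PSMB5, PSMG4, PSMB10 and PSMA5, not shown, also had a window without an ARE core. Members with a core include some that were higher after siRNA in both lines, PSME1, PSME2 and PSMG1 among them.
POMP, chr13:28659010-28659129, plus strand: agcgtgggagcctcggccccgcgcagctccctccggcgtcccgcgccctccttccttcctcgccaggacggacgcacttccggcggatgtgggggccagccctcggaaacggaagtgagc
PSMC3, chr11:47426440-47426559, minus strand: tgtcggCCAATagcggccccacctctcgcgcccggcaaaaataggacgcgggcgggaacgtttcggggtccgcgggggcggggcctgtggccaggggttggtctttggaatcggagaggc
PSMG1, chr21:39183592-39183651, minus strand: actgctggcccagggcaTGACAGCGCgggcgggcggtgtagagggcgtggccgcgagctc
PSMD9, chr12:121888630-121888709, plus strand: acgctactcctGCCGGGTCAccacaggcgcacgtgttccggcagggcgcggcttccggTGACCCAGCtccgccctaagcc
PSMB3, chr17:38752611-38752670, plus strand: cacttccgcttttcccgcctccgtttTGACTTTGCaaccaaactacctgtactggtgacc
ADRM1, chr20:62302736-62302795, plus strand: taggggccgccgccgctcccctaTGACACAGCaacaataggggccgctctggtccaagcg
PSMD12, chr17:67366708-67366767, minus strand: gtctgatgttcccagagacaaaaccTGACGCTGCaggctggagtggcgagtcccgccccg
PSME1, chr14:24136084-24136143, plus strand: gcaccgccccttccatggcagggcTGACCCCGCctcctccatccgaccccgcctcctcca
PSME2, chr14:24146751-24146810, minus strand: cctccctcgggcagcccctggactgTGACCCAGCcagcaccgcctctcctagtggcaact
PSME4, chr2:53971004-53971063, minus strand: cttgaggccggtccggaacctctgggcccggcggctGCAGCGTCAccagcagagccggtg
PSMB9, chr6:32854022-32854081, plus strand: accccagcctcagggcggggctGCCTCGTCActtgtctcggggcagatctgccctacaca

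Most proteasome genes were lower after NRF3 siRNA in HCT116 and higher with NRF3 in H1299, by small amounts, and HCT116-p53KO gave no direction that held with loess correction for level. After NRF3 siRNA 29 of 44 members were lower in HCT116, where 48.4% of expressed genes were lower, and 28 of 44 were higher in HCT116-p53KO, where 50.5% of expressed genes were higher. With NRF3 in H1299 34 of 45 were higher, against 49.4%. The median over members was -0.13 for siRNA in HCT116, 0.02 for siRNA in HCT116-p53KO and 0.16 for the NRF3 plasmid, beside medians of 0.01, 0.00 and 0.00 over all expressed genes. With loess correction for level these medians were -0.07, 0.0002 and 0.10. The counts were then 27 of 44 lower, 22 of 44 higher and 30 of 45 higher, against 49.4%, 48.9% and 49.2% of expressed genes. After repeated quantile normalization the medians were -0.09, 0.02 and 0.10. The counts were 29 of 44 lower, 26 of 44 higher and 30 of 45 higher, against 44.5%, 51.4% and 47.2%. PSMB8, under 6 on every HCT116-family array, is the member missing from the counts of 44.

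**Figure D1:**
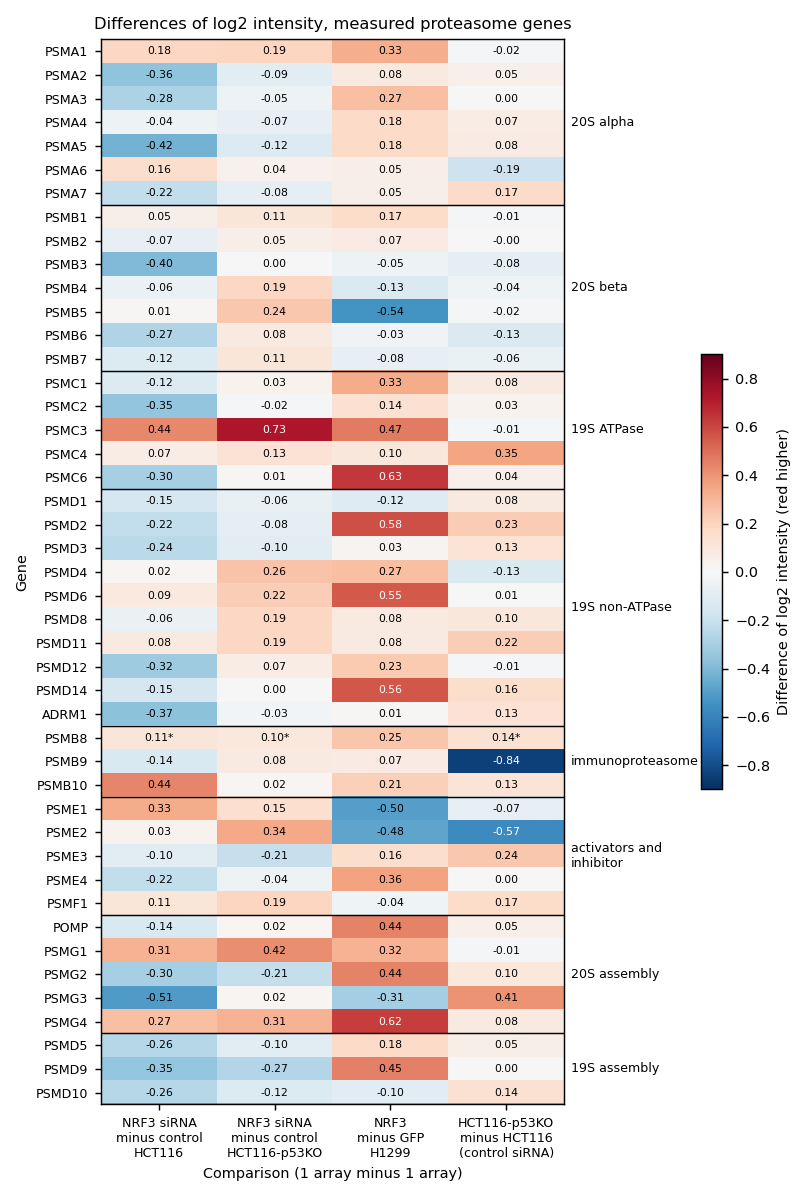
Difference of log2 intensity for each of the 45 measured members (rows, by class) in 4 comparisons of 1 array with another (columns); red is higher, blue lower, and * marks a gene under 6 on both arrays. The H1299 column is mostly red outside the 20S beta subunits, PSME1 and PSME2, and the darkest cells are PSMC3 in HCT116-p53KO (0.73) and PSMB9 in HCT116-p53KO against HCT116 (-0.84).

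Few single differences were large. In HCT116 7 of 44 members (15.9%) were 0.32 or more lower with NRF3 siRNA, against 17.1% of 14034 expressed genes, and 3 (6.8%) were 0.32 or more higher, against 13.0%. In HCT116-p53KO 0 were that much lower, against 9.18% of 13680 genes, and 3 were higher, against 13.7%. In H1299 12 of 45 (26.7%) were 0.32 or more higher with NRF3, against 15.2% of 11304 genes, and 3 (6.7%) were lower, against 14.2%. The shares in HCT116 are therefore near or under the background, and that of higher genes in H1299 is above it in the deposited values. PSMD12 (-0.32 in HCT116) and PSMG1 (0.32 in H1299) lay just outside the size threshold, and PSMA1 (0.33 in H1299) just inside. With loess correction for level, 3 members in place of 7 were past the threshold and lower in HCT116. In H1299 9 in place of 12 were past it and higher, and 4 in place of 3 lower, under loess or repeated quantile normalization. No background share past the size threshold is given for these scalings.

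Differences of 1.5-fold were rarer still. In HCT116 0 of 44 members were that much higher and 0 lower, against 2.71% and 6.02% of all genes. In HCT116-p53KO 1 (PSMC3) was higher and 0 lower, against 3.63% and 2.38%. In H1299 2 (PSMC6 and PSMG4) were higher and 0 lower, against 4.82% and 4.20%. PSMC6 passed by the probe set used here only, as the mean of its probe sets gave 0.48, under this size. Between the control arrays of the HCT116 lines 0 were higher and 1 (PSMB9) lower, against 0.868% and 3.45%.

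**Figure D2:**
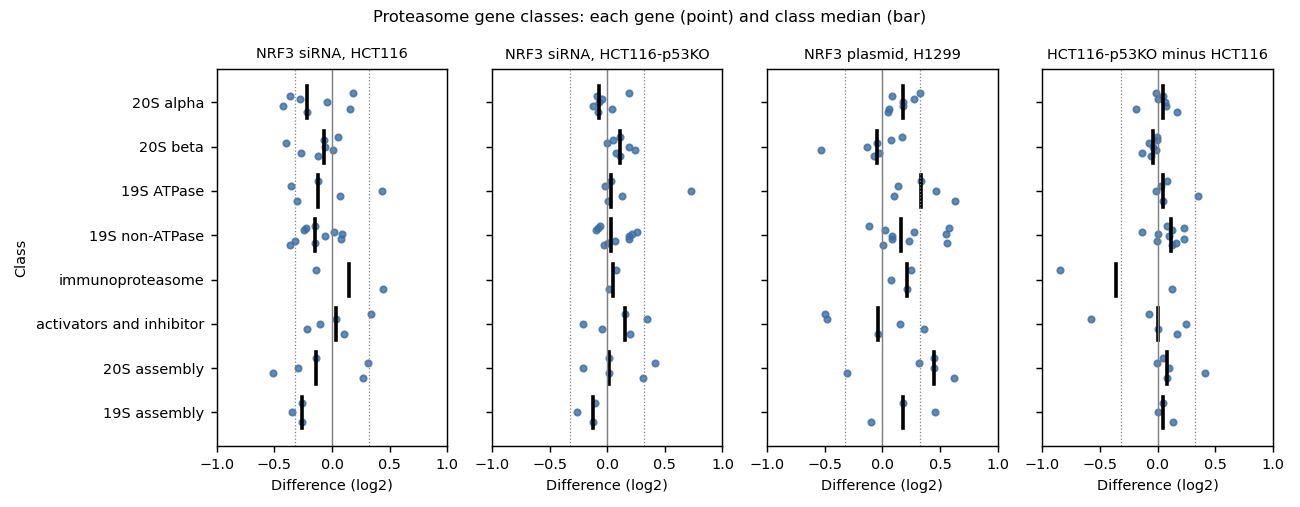
Each point is a gene that reached 6 on at least 1 array of the comparison, by class (vertical axis), with its difference of log2 intensity on the horizontal axis; bars are class medians and dotted lines mark 0.32 either way. In H1299 the 20S assembly chaperones (0.44) and 19S ATPases (0.33) have the highest class medians and the 20S beta subunits lie near 0 (-0.05).

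Within the 20S core the alpha and beta rings parted in H1299. All 7 alpha subunits, which form the gated outer rings, were higher with NRF3, by 0.05 (PSMA7) to 0.33 (PSMA1), with a median of 0.18. Under loess or repeated quantile normalization PSMA6 and PSMA7 were slightly lower, which left 5 of 7 higher, with a median of 0.11 in both. Of the 7 constitutive beta subunits 5 were lower, with a median of -0.05, or -0.11 under either scaling. After siRNA the alpha subunits had medians of -0.22 in HCT116 and -0.07 in HCT116-p53KO, with the same 5 of 7 lower in both lines and PSMA1 and PSMA6 higher in both. The beta subunits had medians of -0.07 and 0.11, with 5 of 7 lower in HCT116 and 7 of 7 higher in HCT116-p53KO, PSMB3 there by under 0.01. With loess the beta medians were -0.02 and 0.06, with 4 of 7 lower (PSMB4 turned) and 6 of 7 higher (PSMB3 turned), and PSMA4 was higher in HCT116.

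PSMA5 had the lowest alpha difference in HCT116. Its levels were 9.50 on the control array and 9.07 on the knockdown array of HCT116, 9.57 and 9.45 in HCT116-p53KO, and 8.73 with GFP and 8.90 with NRF3 in H1299. It was thus lower on both siRNA arrays, by 1.34-fold and 1.09-fold, and higher on the NRF3 plasmid array, by 1.13-fold. PSMA2, another alpha subunit, was at 11.77 and 11.41 in HCT116, 11.82 and 11.72 in HCT116-p53KO, and 11.13 and 11.21 in H1299, the same order in each pair. PSMA3 showed this order too, with -0.28, -0.05 and 0.27. PSMA1 went the other way after siRNA: it was higher on the array with NRF3 siRNA in both lines (0.18 and 0.19) and also on the NRF3 plasmid array (0.33).

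The beta subunits that cleave peptides are PSMB5, with chymotrypsin-like activity, PSMB6, with caspase-like activity, and PSMB7, with trypsin-like activity. PSMB5 was at 11.36 and 11.38 in HCT116, 11.35 and 11.59 in HCT116-p53KO, and 9.57 with GFP and 9.03 with NRF3 in H1299. It hardly differed in HCT116, was 1.18-fold higher with NRF3 siRNA in HCT116-p53KO, and was 1.45-fold lower with NRF3 in H1299, where it had the lowest value of all 45 members. PSMB6 (-0.27, 0.08 and -0.03) and PSMB7 (-0.12, 0.11 and -0.08) were lower in HCT116 and H1299 and higher in HCT116-p53KO. Among the structural beta subunits PSMB3, whose ARE core is shown above, was at 12.21 and 11.81 in HCT116, 12.13 on both HCT116-p53KO arrays, and 11.09 and 11.05 in H1299. It was therefore lower by 1.32-fold on the HCT116 siRNA array alone. PSMB1, PSMB2 and PSMB4 lay between -0.13 and 0.19 in every NRF3 comparison.

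The 19S ATPases form the ring that unfolds substrates, and 5 of the 6 were measured. PSMC3 was the one member that passed a test. Its levels were 9.70 on the control array and 10.13 on the knockdown array of HCT116, 9.68 and 10.41 in HCT116-p53KO, and 9.28 with GFP and 9.75 with NRF3 in H1299. The 2 control siRNA arrays differed by only 0.01, both siRNA arrays lay above them, and the NRF3 plasmid array lay above the GFP array as well. The differences were 0.44, 0.73 and 0.47, or 1.35-fold, 1.65-fold and 1.38-fold. Over the 4 HCT116-family arrays limma, with the line as a block, called PSMC3 as risen with NRF3 siRNA, by 0.58 ± 0.16 (SE), at an adjusted p of 0.0065 over 14148 genes.

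PSMC3 was 1 of 44 members called higher by that fit and 0 were called lower, against 4.45% and 5.43% of the 14148 genes. At an unadjusted p of 0.05 it gave 2 members, PSMC3 and PSMG1, both higher, against 20.4% of the genes. The fit has 1 residual degree of freedom, and its only replication is across lines, so a p-value sets the effect against how it varied between lines, with a spread shared by all genes. PSMC3 had a limma adjusted p of 0.22 once the prior came from the 6-array fit, and of 0.66 with its own residual. Since PSMC3 was also higher with more NRF3 in H1299, the fit of all 6 arrays (more NRF3 minus less) gave -0.23 ± 0.22 (SE) and an adjusted p of 0.77.

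PSMC6, another ATPase, was at 8.65 and 8.35 in HCT116, 8.69 and 8.70 in HCT116-p53KO, and 7.11 and 7.75 in H1299. By the probe set used here it was 1.55-fold higher with NRF3 in H1299, the highest value there. It was 1.23-fold lower with NRF3 siRNA in HCT116 and hardly differed in HCT116-p53KO. Its other probe set gave -0.52, -0.11 and 0.33, the same directions in HCT116 and H1299 with the smaller value in H1299. By that probe set PSMC6 was lower in both knockdowns. The mean of its probe sets in H1299 was 0.48, under 1.5-fold. PSMC6 has 3 named pseudogenes in RefSeq, and 22 of the 48 members have at least 1, so part of such a signal may come from copies. PSMC1 (-0.12, 0.03 and 0.33) and PSMC2 (-0.35, -0.02 and 0.14) had the same order as PSMC6 in HCT116 and H1299, and the other probe set of PSMC1 gave -0.13, 0.02 and 0.37. PSMC4 was higher in all 3 comparisons, by 0.07, 0.13 and 0.10.

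The non-ATPase subunits of the 19S particle hold the scaffold, the ubiquitin receptors and the deubiquitinase. Of 10 measured, 7 were lower in HCT116 (median -0.15), 6 were higher in HCT116-p53KO (median 0.04, or -0.01 with loess) and 9 were higher in H1299 (median 0.16). Under loess or repeated quantile normalization 7 were higher in H1299, without PSMD3 and ADRM1. The scaffold subunit PSMD2 was at 10.88 and 10.66 in HCT116, 11.11 and 11.02 in HCT116-p53KO, and 8.81 and 9.39 in H1299. It was lower on both siRNA arrays and 0.58 higher with NRF3 in H1299. PSMD14, the deubiquitinase of the lid, was at 10.34 and 10.19, 10.50 and 10.51, and 9.71 and 10.27 in the same order of arrays. It was 1.47-fold higher in H1299 and differed by 0.15 or less after siRNA. The lid subunit PSMD6 was 1.47-fold higher in H1299 as well (7.97 and 8.52), yet it was also higher on both siRNA arrays, by 0.09 and 0.22.

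The ubiquitin receptors ADRM1 and PSMD4 differed from one another. ADRM1, with an ARE core in the stretch shown above, was at 11.71 and 11.35 in HCT116, 11.84 and 11.82 in HCT116-p53KO, and 10.68 on both H1299 arrays. It was 1.29-fold lower on the HCT116 siRNA array and differed by under 0.03 elsewhere. PSMD4 was higher by 0.02, 0.26 and 0.27. Of the remaining lid and base subunits PSMD12 was at -0.32, 0.07 and 0.23, PSMD3 at -0.24, -0.10 and 0.03, PSMD8 at -0.06, 0.19 and 0.08, and PSMD11 at 0.08, 0.19 and 0.08. PSMD1, a base scaffold, was lower in all 3 comparisons, by 0.15, 0.06 and 0.12.

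Immunoproteasome subunits replace the catalytic beta subunits after interferon and alter the peptides made for MHC class I. PSMB8, which replaces PSMB5, was at 5.24 and 5.35 in HCT116, 5.38 and 5.48 in HCT116-p53KO, and 6.34 and 6.59 in H1299. It was low on the scale throughout the HCT116 family, and its difference in H1299 was 0.25. PSMB10, which replaces PSMB7, was at 7.60 and 8.04 in HCT116, 7.73 and 7.74 in HCT116-p53KO, and 5.92 and 6.14 in H1299. It was 1.35-fold higher on the HCT116 siRNA array, the highest value of any member there, and differed by 0.02 in HCT116-p53KO. PSMB9, which replaces PSMB6, was at 7.71 and 7.58, 6.87 and 6.95, and 7.04 and 7.11. Its NRF3 differences were small (-0.14, 0.08 and 0.07), but both HCT116-p53KO arrays lay below both HCT116 arrays. The 3 probe sets named PSMB8 hold identical values, and so do the 3 named PSMB9.

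**Figure D3:**
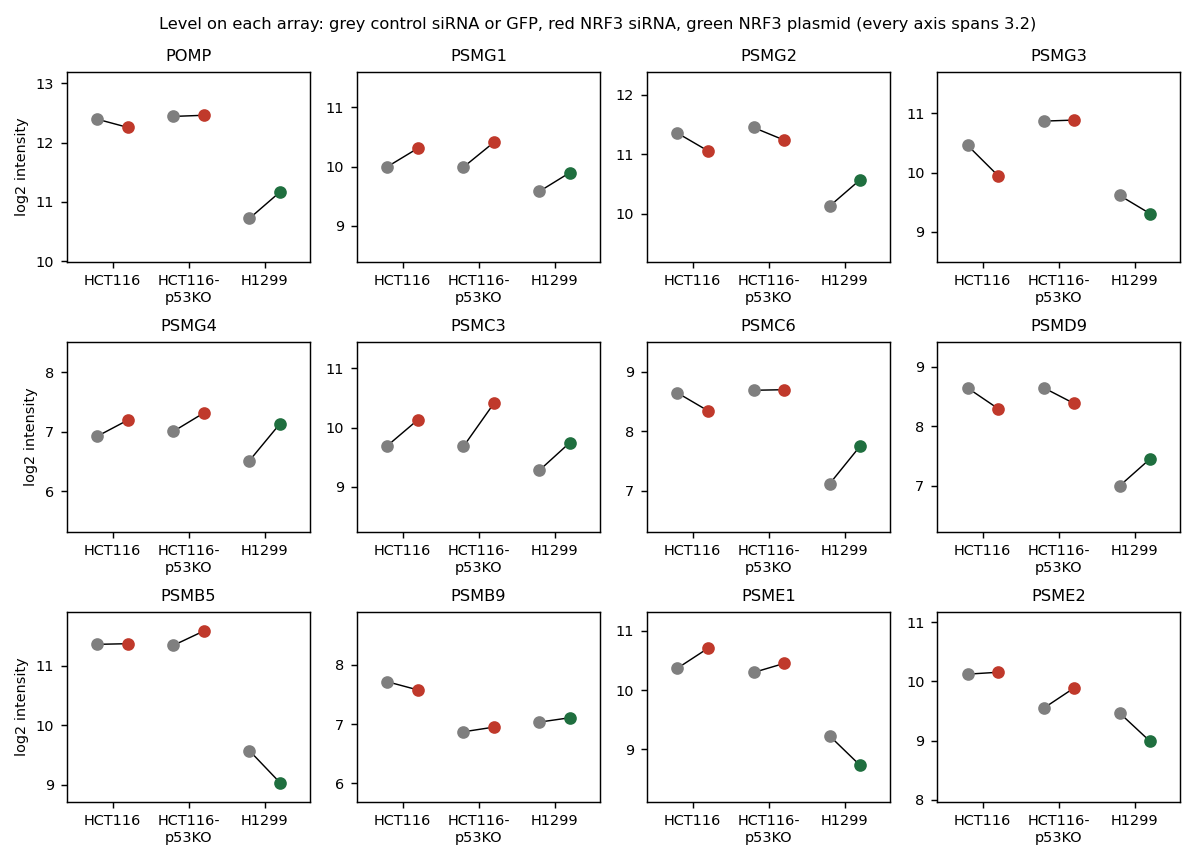
log2 intensity (vertical axis, spanning 3.2 in every panel) of 12 members on the 6 arrays, with lines joining the arrays of a cell line; grey is control siRNA or GFP, red NRF3 siRNA and green NRF3 plasmid. PSMC3, PSMG1 and PSMG4 are higher on the coloured array of every line, while PSMD9 and PSMG2 are lower with siRNA and higher with the NRF3 plasmid, and PSME1 and PSME2 the reverse.

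The activators PSME1 and PSME2 together form PA28, a ring that opens the core without ATP and is also induced by interferon. Both genes have an ARE core in the stretches shown above. PSME1 was at 10.37 and 10.70 in HCT116, 10.30 and 10.45 in HCT116-p53KO, and 9.23 with GFP and 8.73 with NRF3 in H1299. PSME2, which lies within 20 kb of PSME1, was at 10.12 and 10.15, 9.55 and 9.89, and 9.47 and 8.99. Both genes were thus higher with less NRF3 in every line, by 1.26-fold and 1.11-fold for PSME1 and 1.02-fold and 1.27-fold for PSME2 after siRNA, and by 1.41-fold and 1.39-fold on the GFP array relative to the NRF3 array. In the limma fit of all 6 arrays PSME1 was at -0.33 ± 0.13 (SE), with an unadjusted p of 0.037 and an adjusted p of 0.42, and PSME2 at -0.28 ± 0.14 (SE), with an adjusted p of 0.50, so neither passed.

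PSME3, the nuclear PA28 gamma, and PSME4, which encodes PA200, had the opposite order. PSME3 was at 11.69 and 11.58 in HCT116, 11.93 and 11.72 in HCT116-p53KO, and 10.18 and 10.34 in H1299, lower with less NRF3 in every line. PSME4 was at 10.18 and 9.96 in HCT116, 10.19 and 10.14 in HCT116-p53KO, and 9.19 and 9.56 in H1299, a 1.29-fold difference in the last. PSMF1, the inhibitor PI31, was at 10.85 and 10.96, 11.02 and 11.21, and 10.23 and 10.19, for differences of 0.11, 0.19 and -0.04. The 5 genes therefore fall into PSME1, PSME2 and PSMF1 on one side and PSME3 and PSME4 on the other, though none of the 5 passed either fit.

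The 20S assembly chaperones include POMP, which completes the core and is then degraded by it. POMP was at 12.39 and 12.25 in HCT116, 12.44 and 12.46 in HCT116-p53KO, and 10.72 with GFP and 11.16 with NRF3 in H1299. It was 1.36-fold higher with NRF3 in H1299 (0.44), 0.14 lower with NRF3 siRNA in HCT116 and 0.02 higher in HCT116-p53KO, where its sign turned with loess (-0.0003). limma gave it -0.06 ± 0.16 (SE) for siRNA over the 4 HCT116-family arrays, at an adjusted p of 0.93, and 0.19 ± 0.14 (SE) for more NRF3 over all 6, at an adjusted p of 0.68.

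PSMG1 and PSMG2 pair to guide the alpha ring, but their values did not move together after siRNA. PSMG1, with an ARE core in the stretch shown above, was at 10.00 and 10.31 in HCT116, 9.99 and 10.41 in HCT116-p53KO, and 9.58 and 9.90 in H1299. It was higher on the array with changed NRF3 in every line. PSMG2 was at 11.36 and 11.06, 11.45 and 11.24, and 10.12 and 10.57, lower with siRNA by 0.30 and 0.21 and higher with the NRF3 plasmid by 0.44. PSMG2 overlaps the genes SPIRE1 and CEP76, so its signal may not be its own. The same limit holds for PSMC1, PSMC2, PSMC5, PSMD1 and PSMD10, as 6 listed members overlap another protein-coding gene. limma gave PSMG1 0.36 ± 0.16 (SE) for siRNA, at an adjusted p of 0.16, which was 0.035 with a trended robust prior. The chaperone pair PSMG3 and PSMG4 parted too. PSMG3 was at 10.46 and 9.95 in HCT116, 10.87 and 10.88 in HCT116-p53KO, and 9.62 and 9.31 in H1299, the lowest member in HCT116 (1.42-fold) and 1.24-fold lower in H1299. PSMG4 was at 6.93 and 7.20, 7.01 and 7.32, and 6.51 and 7.13, higher in all 3 comparisons and 1.54-fold higher in H1299.

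The 19S assembly chaperones PSMD5, PSMD9 and PSMD10 were all lower with NRF3 siRNA in both lines, with medians of -0.26 in HCT116 and -0.12 in HCT116-p53KO. PSMD9, whose upstream window holds the ARE core on both strands, was at 8.65 and 8.30 in HCT116, 8.65 and 8.39 in HCT116-p53KO, and 6.99 and 7.45 in H1299. It followed NFE2L3 in each line, by 1.27-fold, 1.20-fold and 1.37-fold. It had the lowest p of the members in the fit of all 6 arrays, at 0.36 ± 0.12 (SE) for more NRF3, with an unadjusted p of 0.021 and an adjusted p of 0.38. PSMD5 was at 10.52 and 10.26, 10.57 and 10.47, and 8.78 and 8.96, for differences of -0.26, -0.10 and 0.18. PSMD10 was at 11.18 and 10.92, 11.31 and 11.19, and 10.04 and 9.94, lower in all 3 comparisons.

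That fit asked which members followed NRF3 across the lines, and limma called 0 of 45 at an adjusted p of 0.05 over 14492 genes, against 0.00690% higher and 0.00% lower among all genes, where NFE2L3 itself was the 1 gene called. In simulated data this fit called 7 of 50 genes with a log2 effect of 0.5, so 0 calls do not exclude differences of that size. At an unadjusted p of 0.05 limma gave 3 members, PSMD9, PSMG2 and PSME1, against 11.1% of all genes. By sign alone 14 of 44 members (31.8%) were lower in both knockdowns and higher in H1299, against 16.9% of 10856 genes expressed in every comparison. These were PSMA2, PSMA3, PSMA4, PSMA5, PSMA7, PSMC2, PSMD2, PSMD3, ADRM1, PSME3, PSME4, PSMG2, PSMD5 and PSMD9. With loess the count was again 14, against 17.5%, but 4 of these genes (PSMA4, PSMA7, PSMD3 and ADRM1) left it and PSMC1, PSMC6, PSMD14 and POMP joined it. The reverse order held for 4 (9.1%), PSMB5, PSME1, PSME2 and PSMF1, against 16.8%. A further 11 were higher in all 3, against 15.1%, with PSMC3, PSMG1 and PSMG4 among them, and 2 (4.5%) were lower in all 3, against 15.3%; with loess 7 were lower in all 3, against 16.7%. Lower in HCT116 alone were 8 members, POMP among them, against 11.4%, and with loess 4, against 8.73%. Lower in HCT116 and H1299 were 5, the beta subunits PSMB3, PSMB4, PSMB6 and PSMB7 and the chaperone PSMG3, against 9.40%, and with loess 2, against 8.21%. The remaining patterns, lower in HCT116-p53KO alone and lower in HCT116-p53KO and H1299, held for 0 members, against 6.30% and 8.11%, and with loess for 1 and 0. The 3 comparisons share no arrays.

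The knockdown was compared next between HCT116 and the derivative labelled as lacking p53. This is a contrast of 2 lines, and the part of p53 in it was not tested. The siRNA difference was lower in HCT116 than in HCT116-p53KO for 39 of 44 members, against 56.5% of 13566 genes. Its median was -0.15 over members, against -0.05 over all genes. As deposited, the difference was lower for 15 of 15 measured 19S subunits, 8 of 8 assembly chaperones and 12 of 14 core subunits. None of these class counts held with loess. The 19S subunits PSMC4 and PSMD1, the chaperones PSMG1, PSMG2 and PSMD9, and the core subunits PSMA1 and PSMB1 then turned. Of the members, 6 (PSMG3, PSMB3, PSMD12, PSMB6, ADRM1 and PSMC2) were lower by 0.32 or more, or 13.6%, against 17.4% of all genes, and PSMB10 alone was higher by as much, or 2.3%, against 11.5%. The gap was thus shared by many members and small in each. The knockdown also differed in depth, with NFE2L3 at -2.35 in HCT116 and -1.55 in HCT116-p53KO, and the part of this in the gap was not tested. After repeated quantile normalization 37 of 44 members were lower in HCT116, against 51.5% of all genes, and with loess correction of each difference 31, against 52.4%. With 1 array per group the difference between the lines cannot be tested.

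**Figure D4:**
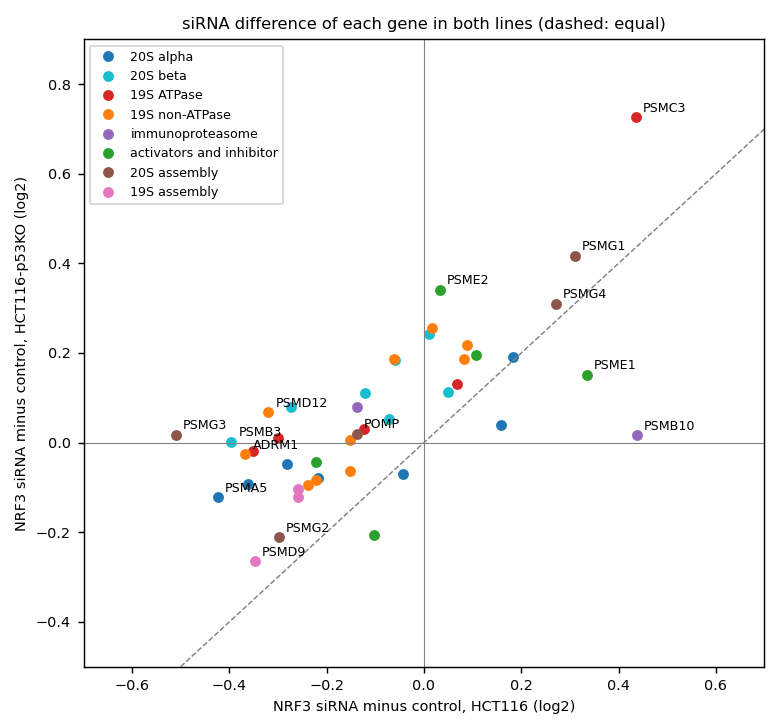
siRNA difference of each of 44 members in HCT116 (horizontal) and HCT116-p53KO (vertical), in log2, coloured by class, with a dashed line where they are equal. Points above the line, 39 of 44, have the lower value in HCT116; PSMC3 is the farthest upper right and PSMB10 and PSME1 lie clearly below the line.

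Across the 44 members the siRNA differences of the lines correlated with r = 0.70 (Pearson) and rho = 0.71 (Spearman), beside r = 0.53 and rho = 0.42 over 13566 genes. These are descriptions across genes, which are not independent replicates and within each comparison share the same 2 arrays.

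Between the control siRNA arrays 4 members differed by 0.32 or more between HCT116-p53KO and HCT116. The median was 0.05, with 28 of 44 members higher in HCT116-p53KO, against 51.4% of 13827 genes. With loess the median was 0.01, with 23 of 44 higher, against 49.0%. By 0.32 or more 2 were higher, against 5.27%, and 2 lower, against 8.86%. The higher members were PSMG3 (0.41) and the ATPase PSMC4 (0.35). The lower ones were PSMB9 (-0.84, or 1.79-fold) and PSME2 (-0.57, or 1.49-fold). Beside them 9 of 10 measured genes of antigen processing and its interferon regulators were lower, 7 of them by 0.32 or more: B2M (-1.10), the light chain of MHC class I, the peptidases ERAP2 (-1.01) and ERAP1 (-0.56), the transcription factors IRF1 (-0.70) and NLRC5 (-0.42), and the peptide transporters TAP2 (-0.54) and TAP1 (-0.33). TAP1 and TAP2 lie within 20 kb of PSMB9. PSMB10 and PSME1, also inducible by interferon, were at 0.13 and -0.07. Each line has 1 control array, and the part of this shift in the PSMB9 and PSME2 values was not tested.

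The rest of the ubiquitin pathway was read from lists of regulators and partners, where limma's shares over all 14148 genes were 4.45% higher and 5.43% lower. In the limma fit of the 4 HCT116-family arrays NFE2L1, the gene of NRF1, rose with NRF3 siRNA by 0.67 ± 0.16 (SE), at an adjusted p of 0.0011. It was at 9.78 and 10.61 in HCT116, 9.86 and 10.37 in HCT116-p53KO, and 9.03 and 8.83 in H1299, higher wherever NFE2L3 was lower. Of the 12 tested genes that encode or regulate NRF1 and its relatives 3 fell in limma. Among them NFE2L3 is the target of the siRNA, so its fall was set by the design. The others were NFE2L2 (by 0.57, limma adjusted p of 0.0080) and SEL1L (by 0.49, adjusted p of 0.031), an adaptor of endoplasmic reticulum degradation. Of 12 genes of the segregase VCP and its cofactors, 2 fell in limma, DERL2 by 0.81 (adjusted p of 3.9e-05) and DERL1 by 0.50 (adjusted p of 0.024), both membrane proteins of that degradation route, and 0 rose. Of 10 tested genes of antigen processing 1 fell, ERAP1, by 0.73 (limma, adjusted p of 0.00027), and 1 gene in a list of this size is near that share. VCP itself was at -0.03, -0.02 and 0.31.

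Of 15 tested proteasome-bound enzymes and factors 1 rose with NRF3 siRNA, against 4.45% of all genes, so the count is near the background. It was PITHD1, a proteasome-interacting protein, at 8.19 and 8.79 in HCT116 and 8.31 and 9.24 in HCT116-p53KO, with 0.76 ± 0.16 (SE) and an adjusted p of 0.00013. In H1299 it hardly differed, at 7.70 and 7.67. The deubiquitinase UCHL5, which binds ADRM1, and the ligase UBE3C were the highest of this list in H1299, at 0.53 and 0.52. None of 7 ubiquitin shuttles and receptors and none of 3 ubiquitin and E1 genes passed. The paralogs PSMA8 and PSMB11, known from testis and thymus, were under 6 on all arrays. As for PSMC3, the calls of this fit rest on a spread pooled over all genes: limma called 0 genes once the prior came from the 6-array fit.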

How the data were processed

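Total RNA from 6 cultures of 3 cell lines, 1 per group, was hybridised to 1 Affymetrix array each. The deposited values are log2 intensities. The submitters' processing notes name RMA and Affymetrix Expression Console and state no version. The HCT116-family and H1299 arrays have different distributions, so they may have been normalized separately, and levels of H1299 are not set against those of the HCT116 lines. Probe sets were named from GEO's platform annotation: of 33297, 19460 have 1 symbol, 1754 several and 12083 are not listed. Each gene was represented by its probe set with the highest mean over the 6 arrays. The members, classes and pathway lists were chosen with earlier results of these data known.

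Differences were taken between single arrays, for genes that reached 6 on either one. limma 3.58.1 in R 4.3.3 was fitted across all expressed genes with cell line as a block, over the 4 HCT116-family arrays (siRNA minus control) and over all 6 arrays (more NRF3 minus less), two-sided, with Benjamini-Hochberg adjustment over all genes at 0.05. Nothing says that cultures were repeated, so the spread in these fits is that between lines. The fits were tested on simulated data. Of 50 genes given a log2 effect of 0.5, the 4-array fit called 3 and the 6-array fit 7. Of 50 given an effect of 1 they called 45 and 47. Both fits thus mostly miss differences of the size seen for the members. The 4-array fit has 1 residual degree of freedom and a prior of infinite weight, so every gene has the same SE, 0.16. The rule for named genes took every immunoproteasome, activator and assembly gene, up to 3 members of each other class per comparison with the largest difference, members called by a fit, NFE2L3 and NFE2L1 as checks, and up to 2 genes of a pathway list per comparison. Levels on all 6 arrays are printed for the first of these groups and for the members the results turn on. Other members are named by counts and ranges or, in places, singly after their values were seen. Alternatives were the floor, the probe set rule, the normalization, the size threshold, the limma prior and leaving out a line. Promoter windows are RefSeq's, build GRCh38.p14. The deposited files give no counts, and no interval for a single array was computed.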

Additional observations from a re-analysis of the deposited data

Results flagged for a closer look

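In 4 classes the median siRNA difference had opposite signs in the HCT116 lines, and with 1 array per group the difference between the lines was not tested. The 20S beta subunits had a median of -0.07 in HCT116 and 0.11 in HCT116-p53KO. The 19S ATPases had -0.12 and 0.03, the 19S non-ATPase subunits -0.15 and 0.04, and the 20S assembly chaperones -0.14 and 0.02. With loess correction for level, tried after seeing the data, 3 of the 4 medians in HCT116-p53KO turned, to -0.0087 for the 19S ATPases, -0.01 for the 19S non-ATPase subunits and -0.0003 for the 20S assembly chaperones. The 20S beta subunits kept opposite signs, at -0.02 and 0.06.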

How the results depend on the processing

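The median difference over members moved by less than 0.1 in all 4 comparisons under every alternative run, but that tolerance is larger than 2 of the medians. With loess the median shrank from -0.13 to -0.07 in HCT116, from 0.02 to 0.0002 in HCT116-p53KO, from 0.16 to 0.10 in H1299 and from 0.05 to 0.01 between the control arrays, so HCT116-p53KO and the control arrays had no stable direction. No member with a difference of 0.32 or more changed sign under repeated quantile normalization or loess correction. Smaller differences did turn under loess, for 2 members in HCT116, 6 in HCT116-p53KO, 4 in H1299 and 5 between the control arrays. At a size threshold of 1.5-fold 0 members were higher and 0 lower in HCT116, 1 was higher in HCT116-p53KO (PSMC3), 2 were higher and 0 lower in H1299 (PSMC6 and PSMG4), and 0 were higher and 1 lower between the control arrays (PSMB9). With the mean of its probe sets PSMC6 was at 0.48 in H1299, under that threshold. With loess correction 3 members in place of 7 were lower in HCT116, and with loess or repeated quantile normalization 1 in place of 2 was higher between the control arrays; the cause was not tested. Over the 4 HCT116-family arrays limma called 2 members with a trended robust prior (PSMC3 and PSMG1), 0 with each gene's own residual and 0 with the prior of the 6-array fit, against 1 as reported. Over all 6 arrays it called 0 to 1 when a line was left out, the 1 being PSMC3 without H1299, which is the 4-array fit. The numbers without PSMC1, PSMC6, PSMB8 and PSMB9, whose genes have several probe sets, and the comparison of the lines, the class medians and the sign patterns under other normalizations were chosen after seeing the data. Both fits pair the arrays of a line through the line block, and with no replicate numbers in the labels no further block could be fitted. The number of arrays limits all values, and PSMB8, under 6 on every HCT116-family array, is limited by signal too.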

Other observations

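Among genes of antigen processing, which the immunoproteasome serves, the highest differences after NRF3 siRNA in HCT116-p53KO were those of the peptide transporter gene TAP2 (0.61) and of B2M (0.59), the light chain of MHC class I. In H1299 the lowest of this list with NRF3 were the peptide-loading chaperones TAPBP (-0.51) and CALR (-0.42), on the arrays where PSME1 and PSME2 were lower as well. Each is a difference between 2 arrays with no replicate check, and none of these 4 genes passed either limma fit.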
